A study of Homo sapiens with 40 samples.

Results

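The difference between cells labelled as IGF2BP3 knockdown and cells labelled as control was measured in total RNA of unstimulated BEAS-2B cells, an immortalised human lung epithelial line. The 10 libraries compared were those labelled input, unstimulated, 5 per line, of the 40 libraries of the series. The series crossed line, IL-13 treatment and RNA fraction (input, or polysome, the RNA bound to ribosome chains) in 8 groups of 5. Both lines carried a constitutively expressed short hairpin RNA, a control hairpin in control and one against IGF2BP3 in knockdown. The groups are taken here as stable hairpin lines, as in the growth protocol, although column names read siC and siIGF2BP3. All cells were grown in RPMI with 10% serum and starved overnight in 2% serum. The unstimulated groups received no IL-13, and the 10 input libraries used as a second set came from the same lines 24 h after IL-13 at 100 ng/ml. Only 1 line per hairpin is named in the labels. An effect of the hairpin and other differences of these lines cannot be told apart. Nothing in the labels says whether replicates were separate cultures, so p-values measure only the spread between these libraries.

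IGF2BP3 belongs to a family of RNA-binding proteins with IGF2BP1 and IGF2BP2. These proteins bind messenger RNAs in the cytoplasm, in part at sites carrying the m6A base modification, and are known for protecting bound messages from decay and for altering their translation. IGF2BP3 is mostly silent in adult tissues and is expressed again in many tumours and immortalised lines. Total RNA records the steady-state level of a message, which is set by its synthesis and its decay together.

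Unstimulated input libraries held 29518526 ± 4509875 estimated counts (SD, n = 5) in control and 23954117 ± 7221047 (SD, n = 5) in knockdown, between 15533925 and 34260970. Mitochondrially encoded messages took between 2.94% and 5.40% of counts in control and between 3.48% and 6.14% in knockdown. Keratin messages were abundant in both lines, with KRT8 at 722 TPM ± 103 in control and 770 TPM ± 116 in knockdown (SD, n = 5), and so was the mesenchymal filament VIM at 1259 TPM ± 161 and 1327 TPM ± 179. TPM is a level per transcript length and library depth. The epithelial adhesion genes EPCAM and CDH1 were each under 1 TPM in the mean of either line, and the leukocyte genes PTPRC and CD3E had 0 counts. Control replicate 1 stood apart from the other libraries. In it, 57 genes were more than 4-fold above every other input library, against at most 1 gene in any of the other 19 (median 0). It took the extreme score on the first principal component of the 10 libraries, which held 35.2% of the variance, and the results it moved most are given with and without it.

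As a check of the labels, the knocked-down gene itself, IGF2BP3 (ENSG00000136231.14), came first. It measured 22.6, 46.8, 50.6, 32.5 and 32.5 CPM (estimated counts relative to the scaled library size) in control replicates 1 to 5 and 23.1, 26.5, 27.4, 23.0 and 30.3 CPM in knockdown replicates 1 to 5. The highest knockdown library lay below 4 of the control libraries, and control replicate 1 lay below every knockdown library, so the groups overlapped. The means were 37.0 CPM ± 11.5 and 26.1 CPM ± 3.11 (SD, n = 5), 29.6% lower in knockdown. This difference did not pass a two-sided exact permutation test of log2(CPM + 1) (log2 difference -0.44, p = 0.0794, adjusted 0.119 over 6 tests), for which the 252 arrangements give a smallest p of 0.00794. Without control replicate 1, the only control library not above all knockdown libraries, the log2 difference was -0.60 with an exact permutation p adjusted to 0.0238. That is the extreme of the 10 fits that left out 1 library. These ran from -0.60 to -0.32, with exact permutation p adjusted to between 0.0238 and 0.214. In the IL-13 libraries of the same lines it was -0.46 (exact permutation p = 0.0476, adjusted 0.0952). In the deposited TPM, IGF2BP3 without IL-13 was at 11.2 ± 4.65 in control and 8.12 ± 1.36 in knockdown (SD, n = 5). With IL-13 the TPM values lay closer, at 9.56 ± 2.57 in control and 8.36 ± 2.64 in knockdown. Directions below rest on the labels.

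The paralog IGF2BP2 (ENSG00000073792.16), made from another gene, was higher in knockdown in the mean. It measured between 65.4 and 86.1 CPM in control and between 73.5 and 98.5 CPM in knockdown, with means of 72.8 ± 8.20 and 88.3 ± 9.54 (SD, n = 5). The log2 difference of 0.27 had an exact permutation p of 0.0397, adjusted to 0.0952. With IL-13 it was 0.49, at an exact permutation p of 0.00794, adjusted to 0.0476. IGF2BP1 (ENSG00000159217.10), the least abundant by CPM, measured 7.56 CPM ± 2.72 and 7.10 CPM ± 1.69 (SD, n = 5), with a log2 difference of -0.05 at an exact permutation p of 0.841, adjusted to 0.881.

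**Figure D1:**
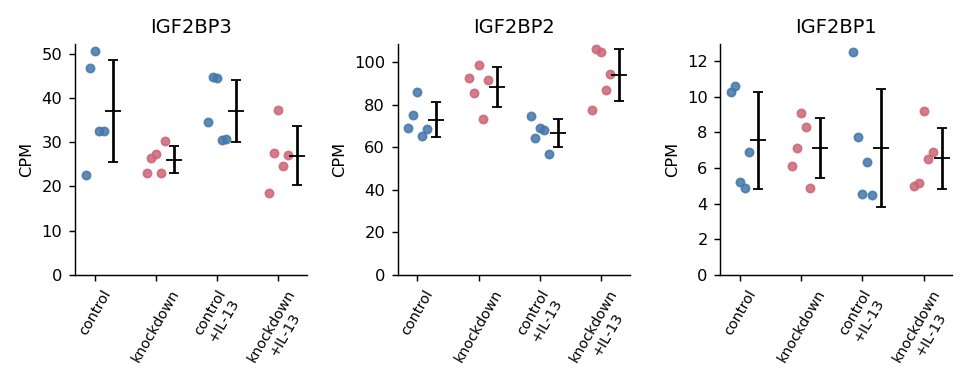
CPM of IGF2BP3, IGF2BP2 and IGF2BP1 in the 20 input libraries, by line and treatment. Each point is 1 library, ordered by replicate number, and the bar beside each group is its mean ± SD (n = 5). IGF2BP3 control replicate 1, at 22.6 CPM, lies among the knockdown libraries.

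Across the transcriptome few genes were called as different between the lines, and the count depended on the test and the libraries. It was 2 in a fit of all 40 libraries and 105 by the Wald test of DESeq2. Of 16044 genes tested with the quasi-likelihood test of edgeR, 18 passed a Benjamini-Hochberg adjusted p of 0.05 (0.112% of genes), 17 higher in knockdown (0.106%) and 1 lower (0.00623%). The libraries of the lines did not overlap in any of the 18, nor in 1.38% of all genes tested (0.904% higher in knockdown). Leaving aside A2M, which had 0 counts in all unstimulated control libraries, fold changes of the higher genes ran from 1.40 to 8.33. The lower gene, CYB5R2, had a fold change of 0.257. The 18 comprised a signalling regulator and a WNT ligand, an amino acid transporter, enzymes of small-molecule metabolism and a transcription factor. They also held actin-binding and adhesion proteins, secreted proteins, a histone chaperone and a ubiquitin-pathway protein. The median log2 difference of all genes was -0.02. In bulk RNA of this kind, fewer cells of a kind and less RNA per cell cannot be told apart.

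**Figure D2:**
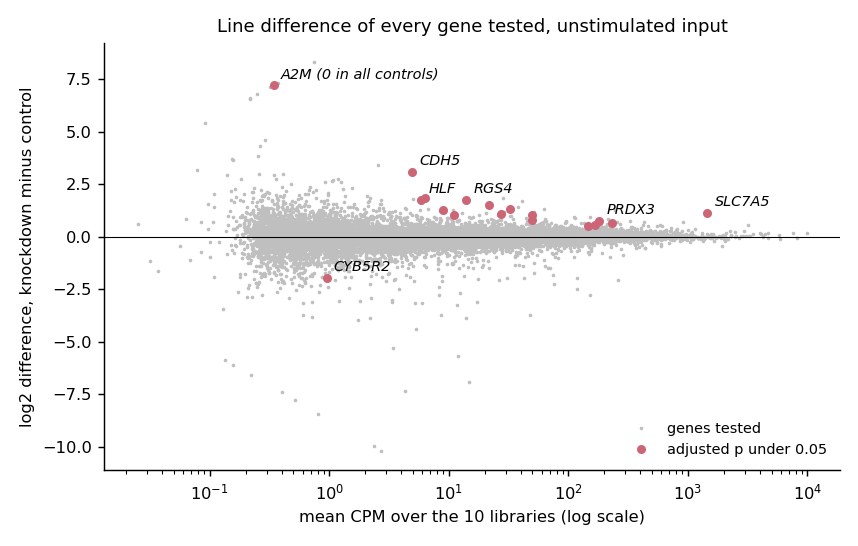
Log2 difference between lines (knockdown minus control, vertical axis) against mean CPM over the 10 unstimulated input libraries (log axis) for the genes tested. Red points are the 18 genes with an adjusted p under 0.05, 17 of them above 0. The height of A2M is a fitted value that depends on the prior count, since its control libraries hold 0 counts.

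The smallest p belonged to RGS4 (ENSG00000117152.14), on chromosome 1, a GTPase-activating protein that shortens signalling by G proteins of the Gi and Gq classes. Control replicates 1 to 5 measured 5.45, 6.33, 5.67, 6.66 and 8.00 CPM, and knockdown replicates 1 to 5 measured 29.0, 19.7, 19.4, 14.2 and 24.7 CPM. Every knockdown library lay above every control library. The log2 difference was 1.73 ± 0.204 (SE; edgeR adjusted p = 0.000609). Of the 23 RGS and G-protein genes tested, RGS4 was the only one called. At an unadjusted p under 0.05, 1 was higher (RGS4) and 1 lower (RGS19). Over all genes tested that limit held for 6.35% (2.9% higher and 3.45% lower). RGS19, another family member, was at 31.7 CPM ± 4.91 in control and 25.3 CPM ± 2.54 in knockdown (log2 difference -0.32, adjusted p = 0.604 in edgeR). The abundant subunits GNAS, GNB1 and GNAI2 had log2 differences of 0.01, 0.12 and -0.10.

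SLC7A5 (ENSG00000103257.9), on chromosome 16, encodes the light chain of the LAT1 transporter, which brings leucine and other large neutral amino acids into the cell. It measured 1013, 955, 909, 684 and 1013 CPM in control replicates 1 to 5 and 1667, 1901, 2094, 2466 and 1849 CPM in knockdown replicates 1 to 5. Control replicate 1 sat with the other control libraries for this gene. The log2 difference was 1.13 ± 0.151 (SE; edgeR adjusted p = 0.00242). SLC3A2, the heavy chain that carries LAT1 to the membrane, was at 301 CPM ± 138 in control and 401 CPM ± 30.8 in knockdown (log2 difference 0.41, adjusted p = 0.846 in edgeR). In its control libraries replicate 1 held 534 CPM and the other 4 between 203 and 319 CPM, below all 5 knockdown libraries (369 to 435 CPM). Without control replicate 1 its log2 difference was 0.72.

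SLC7A5 is also a textbook target of ATF4, the transcription factor of the amino acid and endoplasmic reticulum stress response, which binds a C/EBP-ATF element in promoters. Of the 28 ATF4 stress genes tested, 3 were above 0 and 25 below, with a median log2 difference of -0.81, and SLC7A5 was the only one called. Unadjusted p under 0.05 held for 1 higher and 19 lower genes. Without control replicate 1 the median was -0.31, with 6 above and 22 below 0 and 7 lower at an unadjusted p under 0.05. In IL-13 libraries the median was -0.22, with 5 above and 23 below. SLC7A11, the cystine transporter, measured 42.8, 27.9, 15.3, 5.64 and 13.3 CPM in control and 3.28, 6.01, 6.68, 5.88 and 6.70 CPM in knockdown (replicates 1 to 5). Control replicate 4 fell among the knockdown libraries, and the log2 difference was -1.87 ± 0.407 (SE; edgeR adjusted p = 0.0875). CHAC1, a glutathione-degrading enzyme, was at 9.40 CPM ± 9.79 in control and 1.02 CPM ± 0.355 in knockdown (log2 difference -3.18, adjusted p = 0.0923 in edgeR; -2.37 without control replicate 1). PHGDH, the first enzyme of serine synthesis, was at 294 CPM ± 164 and 149 CPM ± 12.5 (log2 difference -0.98, adjusted p = 0.0986 in edgeR; -0.57 without control replicate 1), and its 5 control libraries all lay above its 5 knockdown libraries.

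The promoters of SLC7A5 and CHAC1 are shown because these members of the list lay on opposite sides of 0. Each is the 250 bases before the annotated start, from RefSeq (GRCh38.p14), read 5′ to 3′ along the gene. Capitals mark matches on either strand to TGATGNAA, a form of the C/EBP-ATF element, or to CACGTG, the E-box. That of SLC7A5 lies at chr16:87869508-87869757 on the minus strand and that of CHAC1 at chr15:40953221-40953470 on the plus strand.
SLC7A5: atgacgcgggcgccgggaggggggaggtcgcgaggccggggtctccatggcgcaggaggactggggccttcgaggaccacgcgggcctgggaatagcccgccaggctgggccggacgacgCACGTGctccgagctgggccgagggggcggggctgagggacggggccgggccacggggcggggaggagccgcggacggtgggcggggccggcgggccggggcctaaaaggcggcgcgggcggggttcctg
CHAC1: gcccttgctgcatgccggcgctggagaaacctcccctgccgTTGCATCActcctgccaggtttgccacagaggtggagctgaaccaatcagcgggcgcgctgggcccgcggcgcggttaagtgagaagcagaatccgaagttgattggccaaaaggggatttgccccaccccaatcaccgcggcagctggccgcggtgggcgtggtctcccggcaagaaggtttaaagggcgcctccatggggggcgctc
The SLC7A5 window held CACGTG from 130 to 125 bases before the start and no TGATGNAA. The CHAC1 window held TGATGNAA on the opposite strand, written TTGCATCA, from 209 to 202 bases before the start. TGATGNAA occurred in 3 of 23 matched promoters of the list (13.0%; CHAC1, ASNS and HERPUD1), in 149 of 11293 promoters of genes tested (1.32%) and in 0 of 13 matched promoters of called genes. CACGTG occurred in 3 of 23 list promoters, in 2 of 13 promoters of called genes (SLC7A5 and PRDX3) and in 8.90% of promoters of genes tested. The motifs do not overlap each other in these windows, and a match of letters is a description only.

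Several called genes encode enzymes. PRDX3, on chromosome 10, the mitochondrial peroxiredoxin that removes hydrogen peroxide, measured 123, 128, 128, 136 and 164 CPM in control and 243, 244, 209, 207 and 234 CPM in knockdown (replicates 1 to 5; log2 difference 0.74, adjusted p = 0.0025 in edgeR). PUDP, on chromosome X, a phosphatase of pseudouridine monophosphate, measured between 4.85 and 9.38 CPM in control and between 13.8 and 16.4 CPM in knockdown, with the narrower spread in the upper group (log2 difference 1.05, adjusted p = 0.00253 in edgeR). Both genes kept an adjusted p of at most 0.0117 in each of the 10 fits that left out 1 library. STEAP3, an endosomal iron reductase, rose from 11.3 CPM ± 2.90 to 31.7 CPM ± 9.76 (log2 difference 1.49, adjusted p = 0.0378 in edgeR). ARSI, a sulfatase, rose from 32.7 to 67.2 CPM in the mean (adjusted p = 0.0297 in edgeR). CYB5R2, a cytochrome b5 reductase and the only called gene lower in knockdown, measured 1.32, 2.08, 1.63, 1.42 and 1.14 CPM in control and 0.448, 0.240, 0.420, 0.597 and 0.190 CPM in knockdown (replicates 1 to 5). These knockdown values rest on between 3 and 21 counts per library (log2 difference -1.96 ± 0.371 SE, adjusted p = 0.0346 in edgeR).

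**Figure D3:**
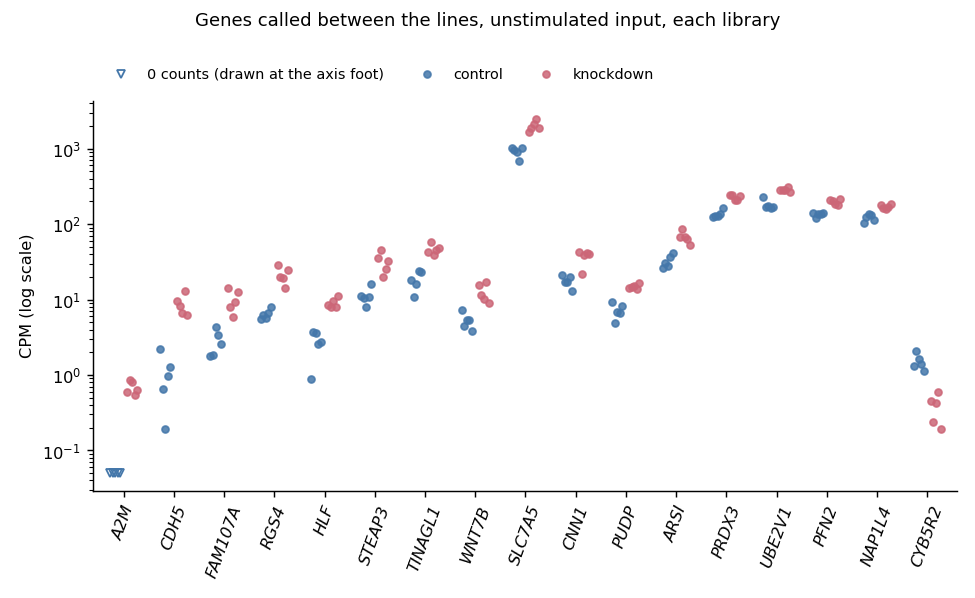
CPM (log axis) of 17 of the 18 called genes in each of the 10 unstimulated input libraries, ordered by log2 difference. Points are libraries, control in blue and knockdown in red, and open triangles at the foot of the axis are the 5 control libraries with 0 counts of A2M. In each gene the 2 colours do not overlap.

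Called genes that encode adhesion and actin-binding proteins follow. CDH5 (ENSG00000179776.19), on chromosome 16, the cadherin of endothelial junctions, measured 2.22, 0.662, 0.193, 0.956 and 1.27 CPM in control and 9.60, 8.17, 6.61, 13.0 and 6.26 CPM in knockdown (replicates 1 to 5). The log2 difference was 3.06 ± 0.541 (SE; edgeR adjusted p = 0.0178), the largest among called genes with counts in both lines. Of the 6 endothelial markers listed, 2 were tested, PECAM1 was under 0.01 TPM in the mean of both lines and KDR had 0 counts, while CDH5 was at 0.337 and 2.78 TPM. The other marker tested, CLDN5, was at 0.652 and 0.660 TPM. The 6 together summed to between 0.935 and 1.25 TPM in control and between 2.57 and 4.88 TPM in knockdown libraries, a difference that CDH5 accounts for. CNN1, the actin-binding calponin of smooth muscle, rose from 17.6 CPM ± 3.13 to 37.0 CPM ± 8.70 (log2 difference 1.07, adjusted p = 0.0496 in edgeR), with knockdown replicate 2 lowest at 21.6 CPM, just above the highest control library at 20.9 CPM. PFN2, a profilin that feeds actin monomers to filaments, rose from 134 to 198 CPM (adjusted p = 0.0114 in edgeR). FAM107A, an actin-associated protein, rose from 2.79 to 9.97 CPM (log2 difference 1.83, adjusted p = 0.0172 in edgeR).

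Of 32 adhesion and cytoskeleton genes tested, 26 were above 0 and 6 below, with a median log2 difference of 0.28, and 1 was called (CNN1). Among all genes tested 45.9% were above 0. At an unadjusted p under 0.05, 7 were higher and 2 lower. Without control replicate 1 the median was 0.24, with 27 above and 5 below, and in IL-13 libraries it was 0.21, with 24 above and 8 below (48.7% of all genes tested were above 0 there). CAV1, the main protein of caveolae, was at 324 CPM ± 91.4 in control and 530 CPM ± 57.9 in knockdown (log2 difference 0.71, adjusted p = 0.117 in edgeR), and MYH9, a non-muscle myosin, at 2545 and 3781 CPM (0.57, adjusted p = 0.694). CLMP, a junctional adhesion protein, was at 10.2 and 19.5 CPM (0.93, adjusted p = 0.336). The most abundant others, FLNA and TLN1, had log2 differences of 0.24 and 0.33, and that of FLNA was 0.05 without control replicate 1 and 0.49 without control replicate 5.

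Secreted and matrix proteins were next. TINAGL1, a matricellular glycoprotein on chromosome 1, measured 18.0, 10.8, 16.2, 23.8 and 22.9 CPM in control and 43.0, 57.3, 38.4, 44.7 and 47.7 CPM in knockdown (replicates 1 to 5; log2 difference 1.33, adjusted p = 0.00306 in edgeR). A2M, a broad protease inhibitor on chromosome 12, had 0 counts in all 5 control libraries and between 10 and 23 counts in the knockdown libraries. Set against a floor of 3 counts per control library, which covers counting error only, it was at least 6.70-fold higher (adjusted p = 0.00383 in edgeR). A2M passed the low-count filter only through its knockdown libraries, so its p is a description. It is under 1 CPM and was chosen for description after its values were seen. Of 44 matrix and integrin genes tested, 28 were above 0 and 16 below (median log2 difference 0.14, but 0.0022 without control replicate 4 and 0.30 without control replicate 2), 0 were called, and 3 were higher and 1 lower at an unadjusted p under 0.05. Among the 3 higher genes were MMP2, a gelatinase, at 20.8 CPM ± 7.64 and 55.0 CPM ± 19.8 (log2 difference 1.41, adjusted p = 0.0875 in edgeR), and TIMP3, a matrix-bound protease inhibitor, at 55.3 CPM ± 11.6 and 82.3 CPM ± 3.72 (0.57, adjusted p = 0.198). MMP2 was called in IL-13 libraries, at 1.59. The abundant SPARC, FN1 and TIMP2 had log2 differences of 0.35, 0.33 and 0.14. That of FN1 was 0.14 without knockdown replicate 2 and 0.57 without control replicate 5, and that of TIMP2 was 0.0676 without control replicate 1.

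WNT7B, a secreted WNT ligand on chromosome 22, measured 7.32, 4.51, 5.32, 5.30 and 3.85 CPM in control and 15.7, 11.5, 10.2, 17.3 and 9.10 CPM in knockdown (replicates 1 to 5; log2 difference 1.28, adjusted p = 0.0172 in edgeR). Among 31 genes of the TGF-beta, BMP and WNT pathways it was the only one called, with 19 above and 12 below 0 and a median of 0.06. WNT5B, a ligand of the non-canonical branch, was at 17.0 CPM ± 6.96 and 34.6 CPM ± 9.37 (log2 difference 1.02, adjusted p = 0.284 in edgeR). The cytokine TGFB1 was at 187 and 141 CPM (-0.41, adjusted p = 0.353) and its effector SMAD3 at 198 and 264 CPM (0.42, adjusted p = 0.497). CTNNB1, which carries the canonical WNT signal, had a log2 difference of -0.02.

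Of the remaining called genes, HLF, a PAR-type bZIP transcription factor on chromosome 17, measured 0.895, 3.75, 3.64, 2.56 and 2.71 CPM in control and 8.51, 8.07, 9.45, 8.04 and 11.1 CPM in knockdown (replicates 1 to 5; log2 difference 1.73, adjusted p = 0.00353 in edgeR). Knockdown libraries were more than 2-fold above the highest control library. NAP1L4, a histone chaperone, rose from 121 to 170 CPM (adjusted p = 0.0346 in edgeR). UBE2V1, a partner of the ubiquitin-conjugating enzyme UBE2N, rose from 181 to 286 CPM (adjusted p = 0.00833 in edgeR). UBE2V1 shares exons with the readthrough gene PEDS1-UBE2V1, so its estimated counts may be split.

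Outside the threshold, the next 7 genes by p with no overlap of libraries and at least 1 CPM in a group were looked at. The number 7 was set by filling the named genes up to 25. Libraries of the lines did not overlap in 1.38% of all genes tested, so more genes that were not called share this trait. CRISPLD2, a secreted glycoprotein, was at 19.2 CPM ± 8.44 and 63.2 CPM ± 18.4 (log2 difference 1.72, adjusted p = 0.056 in edgeR). ADAM12, a metalloprotease, was at 35.4 CPM ± 12.2 and 89.1 CPM ± 20.6 (1.33, adjusted p = 0.0803). NKX2-1, the lung lineage transcription factor, was at 1.33 CPM ± 0.781 and 0.0947 CPM ± 0.0930 (-3.83, adjusted p = 0.0686). Its knockdown libraries held few counts, and 1 held 0. NKX2-1 passed the low-count filter only through its control libraries, so its p is a description. WIPI2, FSTL3 and SEMA7A, all above 0, were also among the 7.

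Of 26 genes tested that are reported elsewhere as IGF2BP targets, 0 were called, where 0.112% of all genes tested were. With so small a share, 0 calls in this list or in those below says nothing about their members. Of the 26, 12 were above and 14 below 0, with a median log2 difference of -0.03. Among all genes tested 45.9% were above 0. The 3 lower genes at an unadjusted p under 0.05 were HMGA1, CCND3 and LIF. HMGA1, a chromatin protein, measured 725 CPM in control replicate 1 and between 181 and 319 CPM in the other control libraries, and between 169 and 247 CPM in knockdown. Without control replicate 1 its log2 difference went from -0.59 to -0.0792, and that of CCND3, a D-type cyclin, from -0.31 to -0.17. LIF, a cytokine, went from a log2 difference of -1.15 to 0.20 without control replicate 1. ACTB, FSCN1 and FOXM1 had log2 differences of 0.19, 0.23 and 0.06, and that of ACTB was 0.0681 without control replicate 1. The m6A machinery (19 genes, 5 above and 14 below 0, median -0.06) held 0 called genes. FTO, an m6A demethylase, had the smallest p there, at 19.0 CPM ± 6.90 and 10.8 CPM ± 3.39 (log2 difference -0.82, adjusted p = 0.353 in edgeR; 0.00 in IL-13 libraries). In the deposited TPM, which account for transcript length, FTO was at 17.6 ± 6.68 and 15.7 ± 4.78 (SD, n = 5). The RNA interference machinery, through which the hairpins act, held 8 of 13 genes above 0 (median 0.07), 0 of them with an unadjusted p under 0.05.

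The series asks about IL-13 and IL-4 signalling, and the receptors and transducers were compared here before any IL-13. Of 26 genes tested, 15 were above and 11 below 0 (median log2 difference 0.02), and 0 were called. STAT3, GRB2 and SHC1, the most abundant by CPM, had log2 differences of 0.02, -0.05 and -0.09. SOCS2, a feedback inhibitor, was the only one with an unadjusted p under 0.05, at 4.38 CPM ± 3.31 and 2.19 CPM ± 0.45 (adjusted p = 0.614 in edgeR), with 9.81 CPM in control replicate 1. Its log2 difference was -0.996, and -0.47 without that library. Of 36 genes known to be induced by IL-13 in airway epithelium, 12 were expressed enough to be tested. Of these, 5 were above and 7 below 0 (median -0.51), and 10 above and 2 below without control replicate 1 (median 0.38). Interferon-stimulated genes were mostly below 0, with 28 of 35 lower and a median of -0.24, and without control replicate 1 the count was 27 of 35 (median -0.17). In IL-13 libraries it was 18 of 35 (median -0.01). ISG15, a ubiquitin-like modifier, was at 65.0 CPM ± 19.2 and 47.2 CPM ± 4.88 (log2 difference -0.46, adjusted p = 0.757 in edgeR), and 0 of the list were called.

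The values of immediate-early and inflammatory genes rested on control replicate 1. EGR1, an immediate-early transcription factor, measured 1101 CPM in control replicate 1, between 29.4 and 82.9 CPM in the other 4 control libraries and between 26.6 and 55.3 CPM in knockdown (log2 difference -2.78, and -0.54 without that library). CXCL8, a neutrophil chemokine, measured 144 CPM in control replicate 1 and at most 0.617 CPM in every other library of the comparison. Of 34 immediate-early and growth-response genes, 33 were below 0 (median log2 difference -0.94, 15 lower at an unadjusted p under 0.05, 0 called). Without that library 13 were below 0 and the median was 0.12. Of 20 inflammatory and NF-kB genes all were below 0 (median -1.44, 13 lower at an unadjusted p under 0.05, 0 called), and without that library 9 were below 0 and the median was 0.03. In IL-13 libraries these medians were both -0.01.

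**Figure D4:**
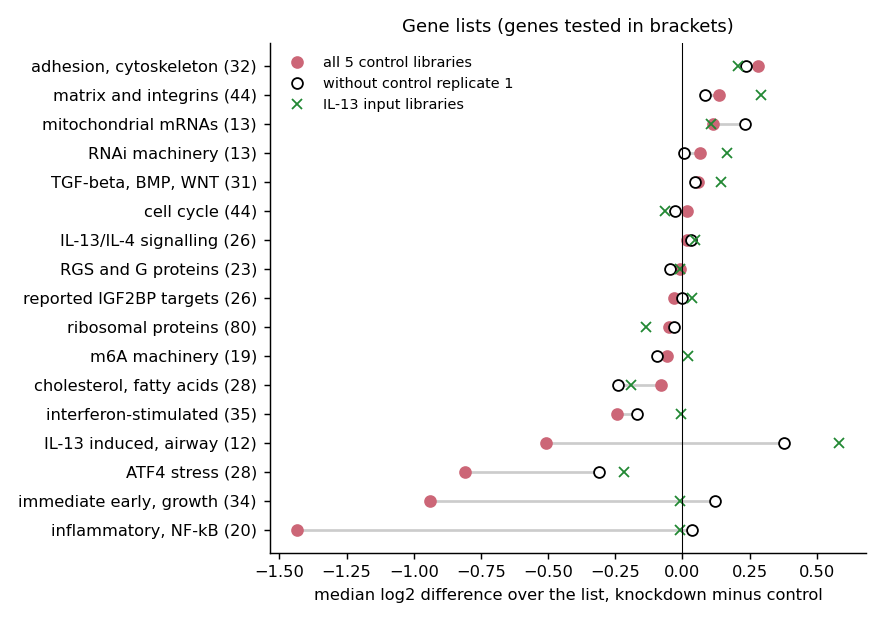
Median log2 difference (knockdown minus control) over each gene list, with the number of genes tested in brackets. Filled points use all 10 unstimulated input libraries, open points leave out control replicate 1, and crosses are the IL-13 input libraries. The 3 lists at the foot move from -1.44, -0.94 and -0.81 to 0.03, 0.12 and -0.31 when that library is left out.

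Leaving out 1 library carried the medians of 13 of the 17 lists across 0, among them every list with a median between -0.1 and 0.1. Those of the adhesion and cytoskeleton, matrix and integrin, ATF4 stress and interferon-stimulated lists kept their sign. Housekeeping and growth programmes held no called gene in edgeR. Cell-cycle genes (44 tested) were 23 above and 21 below 0, with a median log2 difference of 0.02, and 2 were higher and 3 lower at an unadjusted p under 0.05. Among them CDKN1A, the p21 inhibitor of cyclin-dependent kinases, was at 605, 484, 398, 562 and 521 CPM in control and 308, 377, 366, 398 and 321 CPM in knockdown (replicates 1 to 5). The groups overlapped by the lowest control and the highest knockdown library, and the log2 difference was -0.54 ± 0.122 (SE; edgeR adjusted p = 0.0967). The kinetochore gene CENPE was at 13.3 CPM ± 0.904 and 19.7 CPM ± 4.33 (0.57, adjusted p = 0.282). Of 80 cytosolic ribosomal protein genes 22 were above 0 (median -0.05), of 13 mitochondrially encoded messages 11 (median 0.12), and of 28 cholesterol and fatty acid genes 7 (median -0.08). At an unadjusted p under 0.05 these 3 lists held 1, 0 and 0 genes.

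The same 2 lines were compared in the 10 IL-13 input libraries, which share no library with the comparison above. Both comparisons took their spread from the same fit of all 20 input libraries, so their p-values are not independent. There 23 genes were called (0.143% of genes tested), 20 higher (0.125%) and 3 lower (0.0187%) in knockdown. The calls shared 12 genes, 66.7% of the 18 unstimulated calls and 52.2% of the 23. All 18 unstimulated calls had the same sign with IL-13, with an unadjusted p under 0.05 (6.64% of genes tested). In 13 the libraries of the lines did not overlap there, against 1.70% of all genes tested. A2M is among the 18 as a description only, because it passed the low-count filter only through its knockdown libraries. RGS4 went from 6.42 to 21.4 CPM between the lines without IL-13 and from 9.15 to 25.1 CPM with it. The median log2 difference of the 18 was 1.10 without and 0.97 with IL-13. The 18 were chosen on the unstimulated libraries, so these medians are not set against each other.

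Of the 11 genes called with IL-13 alone, all had the same sign without it, with an unadjusted p under 0.05. They included MMP2 and ADAM12. Also among the 11 were MATK, LINC00987 and KLF17, at means of 0, 0 and 0.0221 CPM in IL-13 control libraries. These passed the low-count filter only through their knockdown libraries, so their p-values and signs are a description. The IL-13 counts above include them. RAB31, a small GTPase of membrane traffic, had log2 differences of 0.42 without IL-13 (adjusted p = 0.149 in edgeR) and 0.65 with it. MGARP, a mitochondrial protein, was the lower gene of smallest adjusted p among the 11, at -0.65 (adjusted p = 0.185) and -0.87. Whether the line difference itself changed with IL-13 was tested as an interaction in edgeR. No gene passed (0%), with 237 genes at an unadjusted p under 0.05 (1.48%) and 6 called by the Wald test of DESeq2. A2M had the smallest interaction p of the 18, at 0.0269 unadjusted in edgeR, which is a description only.

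**Figure D5:**
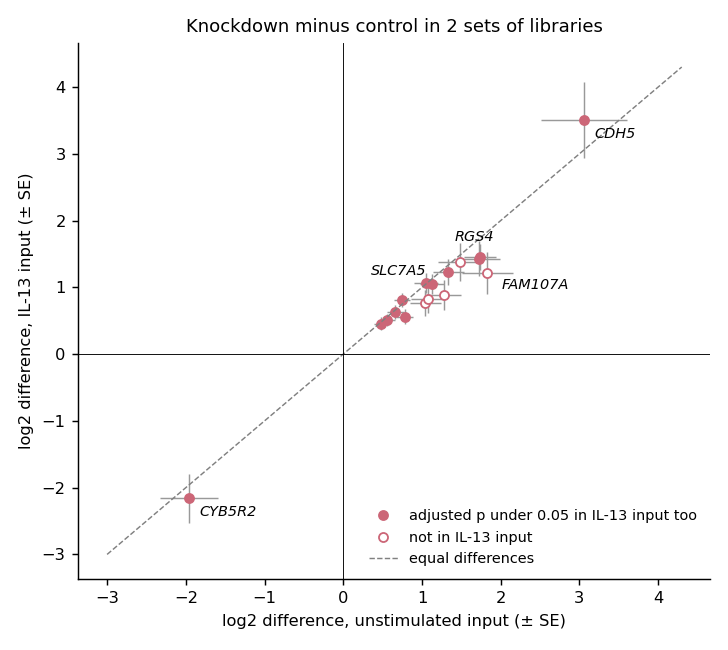
Log2 difference between lines in IL-13 input libraries (vertical) against unstimulated input libraries (horizontal) for 17 of the 18 genes called without IL-13, with SE bars. A2M is not drawn because its unstimulated control libraries hold 0 counts. Filled points are called in both sets, and points on the dashed line would have equal differences.

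The 18 calls were not equally stable. An adjusted p under 0.05 held in all 10 fits that left out 1 library for 9 of the 18. Among the 9 were RGS4, SLC7A5, PRDX3, PUDP, TINAGL1, HLF, A2M and UBE2V1. A2M is counted as a description only, because it passed the low-count filter only through its knockdown libraries. PFN2 kept such a p in 8, FAM107A, CDH5 and WNT7B in 6, ARSI and CYB5R2 in 3, and STEAP3, CNN1 and NAP1L4 in 2. The count of calls was 33 without control replicate 1, 9 without control replicate 2 and 10 without knockdown replicate 1, and 15 of the 18 were among the 33.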

How the data were processed

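RNA was sequenced from input (total) and polysome fractions of 2 BEAS-2B lines with and without IL-13, and only input libraries entered tests. The labels' protocols name poly(A) selection and a stranded kit, and name more than 1 kit. The deposited table held, for 62263 genes, estimated counts and TPM per library, per the file headers. The estimated counts deposited by the authors have decimals and are not scaled for depth. The TPM values deposited by the authors are scaled for length and depth. The submitters' processing notes list Trimmomatic, Salmon, DESeq2 and MultiQC. The build and annotation behind the counts are not given in the sources used here. Symbols matched for 62246 gene IDs and not for 17.

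The design had assumed whole counts, so the estimated counts were rounded. They were filtered with filterByExpr on the 4 input groups, which kept 16044 genes and at least 99.88% of each library's counts. TMM factors and a quasi-likelihood fit of 1 mean per group over 20 libraries (16 residual degrees of freedom) came from edgeR 4.0.16 in R 4.3.3. The contrast was knockdown minus control, with two-sided p-values, Benjamini-Hochberg adjustment across the genes tested and calls at an adjusted p under 0.05. CPM used TMM-scaled library sizes, and SEs are the log2 difference over the root of F. Floors are 3 counts per library and cover counting error alone, because amplified reads lacking molecular identifiers do not each stand for a molecule. The common biological coefficient of variation was 0.332. In the 40 pairs of libraries compared, neither library was a copy of the other (lowest chi-square per degree of freedom 15.4). Not every possible pair was compared. The script was tested on simulated data.

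Named genes were the IGF2BP family, called genes of at least 1 CPM in a group, the next by p without overlap up to 25 genes, and from each list the called genes, the 3 of highest CPM and up to 3 more of smallest unadjusted p under 0.05. Some genes that met this rule are not reported here, and counts include them. ASNS, HERPUD1, RAB31, MGARP, MATK, KLF17 and A2M were chosen after their values were seen. The members and lists were chosen with earlier results of these data known. Alternatives were DESeq2 size factors, the Wald test of DESeq2 1.42.0, other filters, 10 or 40 libraries, robust spread estimation, a replicate block, a pseudocount of 0.1 CPM or TPM for the IGF2BP tests, and each library left out.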

Additional observations from a re-analysis of the deposited data

Results flagged for a closer look

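Among 126 values of named genes and library measures, each with 5 libraries a group, 21 had a library whose gap to its nearest neighbour was over 0.71 of the group's range. For independent normal values this limit is passed in about 1 in 20 groups, or 6.3 of 126. Most of the genes were named for a small p in these same libraries, so the 21 are not set against that share. Of the 21, 15 lay in unstimulated control replicate 1.

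In that library, immediate-early and inflammatory genes stood highest. EGR1 was at 1101 CPM, with the other control libraries at most at 82.9 CPM. The growth-response gene CCN2 was at 1755 CPM, FOSB at 124 CPM and NR4A1 at 138 CPM. The chemokines CXCL8 and CXCL1 were at 144 and 115 CPM, where no other control library passed 1 CPM. TNFAIP3, an NF-kB feedback inhibitor, was at 75.6 CPM, NFKB2 at 197 CPM, the adhesion receptor ICAM1 at 217 CPM and the cytokine LIF at 102 CPM. Also highest there were HMGA1 at 725 CPM, PHGDH at 586 CPM, the arginase ARG2 at 35.3 CPM and UBE2V1 at 231 CPM, which still lay below all knockdown libraries. CAV1 was lowest there, at 162 CPM against at least 350 CPM in the other control libraries.

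In other libraries, ADAM12 was highest in control replicate 5 at 56.9 CPM and in knockdown replicate 2 at 126 CPM. CNN1 was lowest in knockdown replicate 2 at 21.6 CPM. FTO was highest in knockdown replicate 3 at 16.7 CPM, inside the control range. SLC7A11 was lowest in knockdown replicate 1 at 3.28 CPM, and SMAD3 highest in knockdown replicate 4 at 336 CPM.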

How the results depend on the processing

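The number of genes called depended on the test and on the libraries that shared the spread. Against 18 unstimulated and 23 IL-13 calls, the Wald test of DESeq2 called 105 and 150, with 6 for their difference. Only the 10 libraries compared gave 11 and 15, all 40 libraries 2 and 0 (497 and 502 at an unadjusted p under 0.05), and no filter beyond 1 count 27 and 20. Leaving out 1 library gave between 9 and 33 unstimulated and between 6 and 22 IL-13 calls, and 0 for the difference each time. Over all refits, 18 of 18 calls kept their direction, and 18 stayed called by the Wald test, 9 with 10 libraries and 2 with 40. Where A2M is counted in these, it is a description only.

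Replicate numbers did not pair the libraries of the 2 lines within a treatment. Same-number correlations ran from -0.16 to 0.11 without IL-13 and from -0.32 to 0.02 with it. Pairing of replicate numbers across treatments of a line was not tested. With the replicate number as a replicate block 12 unstimulated and 13 IL-13 genes were called, all 12 among the 18. IGF2BP2 with IL-13 was at 0.49 with an exact permutation p adjusted to 0.125 under the block, where the 32 sign arrangements of 5 pairs give a smallest p of 0.0625 before adjustment.

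Leaving out 1 library moved IGF2BP3 between -0.60 and -0.32 (adjusted exact p 0.0238 to 0.214) and, with IL-13, between -0.58 and -0.34 (0.0238 to 0.155). It moved IGF2BP2 with IL-13 between 0.43 and 0.55 (0.0238 to 0.0952). IGF2BP1 changed sign, between -0.17 and 0.0766 and, with IL-13, between -0.17 and 0.15, and was at 0.17 with IL-13 in TPM. Among named genes not called, the sign changed when 1 library was left out for LIF (-1.38 to 0.20), CCL2 (-1.33 to 0.23), CD274 (-0.99 to 0.38), FOSB (-4.18 to 0.19), CCN1 (-0.76 to 0.29), CCN2 (-2.37 to 0.14), TNFAIP3 (-4.03 to 0.13), ICAM1 (-1.63 to 0.0643) and JUND (-0.17 to 0.33, and 0.0219 under the block). In all of these the highest value came without control replicate 1. Smaller ranges across 0 were those of HNRNPC (-0.0940 to 0.0441), STAT3 (-0.0269 to 0.0926), GRB2 (-0.0945 to 0.0246), SHC1 (-0.17 to 0.0055), GNAS (-0.0104 to 0.0277), HSPA5 (-0.28 to 0.0112), RPL13A (-0.0747 to 0.0629, and 0.00098 with 40 libraries), RPLP0 (-0.17 to 0.0551), MT-CO1 (-0.0218 to 0.43), MT-CO3 (-0.0426 to 0.27), MYBL2 (-0.17 to 0.0022), CDKN2A (-0.13 to 0.0649), DKK3 (-0.10 to 0.18) and CTNNB1 (-0.0599 to 0.0096). The cause was not tested.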

Other observations

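In polysome libraries, which entered no test, the line means of all 18 called genes differed in the same direction as in input, as did those of 63.6% of the 16044 genes tested in input. In 4 of them (RGS4, PUDP, WNT7B and CDH5) the polysome libraries of the lines did not overlap, against 0.667% of the genes tested. RGS4 was at 15.9 CPM ± 5.79 in control and 52.7 CPM ± 20.0 in knockdown polysome libraries (SD, n = 5), and SLC7A5 at 954 CPM ± 408 and 2013 CPM ± 892. IGF2BP3 was at 10.6 CPM ± 6.62 and 10.8 CPM ± 8.42.

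The called genes lay on many chromosomes, and chromosome medians of genes of at least 10 CPM ran from -0.07 to 0.01. Of the 72 tested neighbours of the 18 called genes in RefSeq order (GRCh38.p14), 2 on each side, 8 had an unadjusted p under 0.05 (11.1%, against 6.35% of all genes tested) and 0 were called. The following neighbours were chosen after their values were seen. LINC00987, a long non-coding RNA gene next to A2M, held at most 3 counts in each of the 10 control input libraries and between 4 and 36 in each of the 10 knockdown input libraries. It was the only gene of the table with that pattern in either direction at the limit of 3 counts. MATK, outside these neighbours, came close. It held 4 counts in unstimulated control replicate 1 and 0 in every other control input library. In the knockdown input libraries MATK held between 3 and 18 counts. The adjusted p of LINC00987 in edgeR was 0.110 without IL-13 and 0.0217 with it. LINC00987 passed the low-count filter only through its knockdown libraries, so these p-values are a description. Next to STEAP3, C1QL2, which encodes a secreted protein of the C1q family, had a log2 difference of 3.39 (adjusted p = 0.0892 in edgeR). That of MARCO, a scavenger receptor, was 2.67 (adjusted p = 0.195 in edgeR). The levels of C1QL2 and MARCO are not reported here, so these differences may rest on few counts.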
